A study of Arabidopsis thaliana with 4 samples.

Results

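The genes described here are 5 probe sets of the Affymetrix ATH1 array, out of 22746 non-control probe sets, that stood higher in Arabidopsis rosettes after dexamethasone (DEX) than after mock spray. They are 267567_at and 263948_at, chosen by their IDs, and the probe sets whose single annotated gene is UGT76B1 (AT3G11340), BGLU27 (AT3G60120) or CCOAMT (AT1G67980). They were chosen because of their DEX and mock values. Those values are therefore given as a description, with no test. The platform annotation used here does not list 267567_at or 263948_at. The choice of members pairs them with AT2G30770, which RefSeq names CYP71A13, and AT2G35980, which it names YLS9 (NHL10). No table used here ties the probe sets to these loci, so the pairing was not checked and both are called by their IDs.

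All plants were 46 days old, of the C24 background, and carried a transgene for inducible overexpression of ORS1, a NAC transcription factor known as a promoter of leaf senescence. In the DEX group rosettes were sprayed with 30 µM DEX, in the mock group with 0.05% ethanol, and whole rosettes were collected 5 h later, with 2 arrays per group. The labels call the arrays biological replicates and give neither the number of transgenic lines, nor the promoter system, nor the plants per array. With the transgene in both groups, an effect of the steroid alone cannot be told apart from one of ORS1. ORS1 itself (AT3G29035) was paired with 0 single-gene probe sets of the annotation, so its induction was not analysed here. In RNA of whole rosettes, a change in RNA per cell cannot be told apart from a change in the number of cells of a type.

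Plants under attack make small defence molecules and keep many of them, and the hormones that control them, as inactive sugar conjugates. Glycosyltransferases of the UGT family attach the sugar, and beta-glucosidases of the BGLU family can remove it. The phenylpropanoid pathway supplies phenolic compounds for the cell wall and for defence, and O-methyltransferases acting on caffeoyl-CoA belong to it. The tryptophan-derived phytoalexin camalexin is made by cytochromes P450, among them CYP71A13. YLS9 encodes a membrane protein of the NDR1/HIN1-like family, known from infected and from yellowing leaves.

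Values are log2 expression values, so a difference of 1 is 2-fold. UGT76B1, whose product glucosylates salicylic acid and related defence signals, stood at 6.54 and 6.63 on DEX replicates 1 and 2 and at 5.16 and 4.66 on mock replicates 1 and 2. Both DEX arrays were above both mock arrays. The DEX mean was 6.58 ± 0.060 and the mock mean 4.91 ± 0.35 (SD, n = 2), which differ by 1.67, or 3.18-fold. Most of its spread lay in the mock pair, which differed by 0.50, more than in 84.7% of tested probe sets, whereas the DEX pair differed by 0.084. Taken array by array, DEX minus mock ran from 1.38 to 1.96.

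BGLU27, a member of the beta-glucosidase family, was measured at 5.31 and 4.83 on DEX replicates 1 and 2 and at 4.02 and 3.77 on the mock arrays. The groups did not overlap, but the DEX pair was uneven: its difference of 0.48 was larger than that of 97.3% of tested probe sets. The means were 5.07 ± 0.34 (SD, n = 2) and 3.89 ± 0.18, a difference of 1.18, or 2.26-fold. Array by array the difference ran from 0.82 to 1.54. Mock replicate 2 lay under 4, the level used to leave out dim probe sets. With a floor of 5 on 2 arrays BGLU27 was not tested.

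CCOAMT, annotated as a caffeoyl-CoA 3-O-methyltransferase, was the most even of the 5. It stood at 7.48 and 7.50 after DEX and at 6.13 and 6.23 after mock. The means were 7.49 ± 0.014 (SD, n = 2) and 6.18 ± 0.070, a difference of 1.304, or 2.47-fold. Array by array the difference ran from 1.24 to 1.36, the narrowest range among the members.

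The probe set 267567_at had values of 9.06 and 9.18 after DEX and of 7.15 and 6.82 after mock. Its means were 9.12 ± 0.089 (SD, n = 2) and 6.98 ± 0.24, a difference of 2.14, or 4.39-fold, with a range of 1.91 to 2.37 array by array. If the pairing with AT2G30770 holds, the nearby gene CYP71A12 encodes a close relative, and signal shared with it cannot be told apart.

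The probe set 263948_at had values of 8.42 and 8.48 after DEX and of 6.27 and 6.47 after mock. Its means were 8.45 ± 0.038 (SD, n = 2) and 6.37 ± 0.14, a difference of 2.08, or 4.23-fold, with a range of 1.96 to 2.21. On each of the 5 probe sets, then, the lower DEX array lay above the higher mock array.

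**Figure D1:**
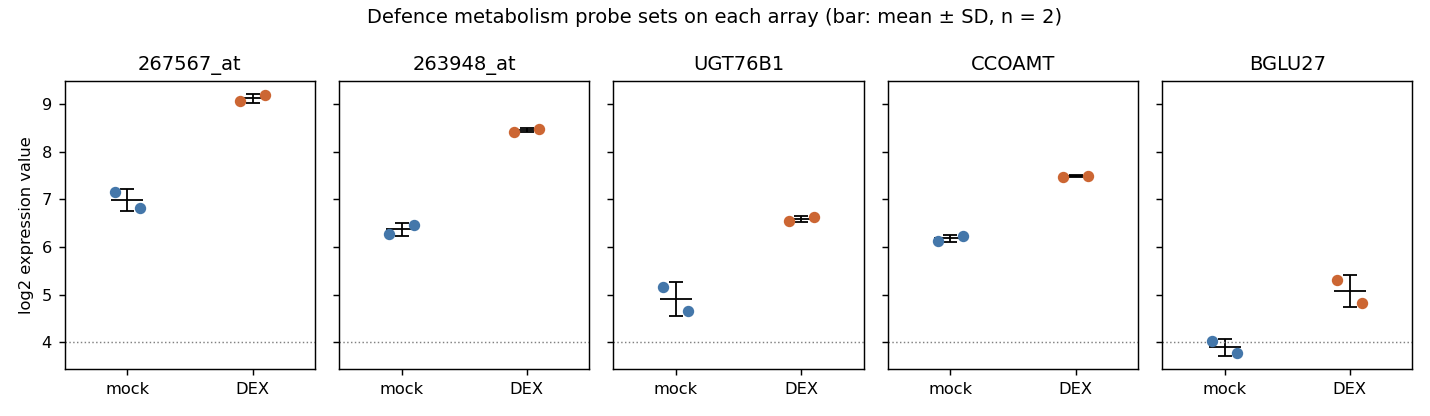
Log2 expression value (vertical axis) of each member on each array, by treatment; within a group the left point is replicate 1 and the right point replicate 2, bars are the mean ± SD (n = 2), and the dotted line marks the filter level of 4. The groups do not overlap in any panel, the mock pair of UGT76B1 (5.16 and 4.66) and the DEX pair of BGLU27 (5.31 and 4.83) are the widest, and 1 mock value of BGLU27 lies under the line.

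All 5 members were among the 19883 probe sets that passed the filter on low values. Ranked by DEX minus mock over these, 267567_at was at rank 1, 263948_at at rank 2, UGT76B1 at rank 10, CCOAMT at rank 48 and BGLU27 at rank 70. Groups that did not overlap, with DEX higher, were seen for 18.1% of tested probe sets and for 5 of 5 members. Groups at least 1 log2 unit apart in that direction were seen for 0.211% of tested probe sets and for 4 of 5 members, all but BGLU27. These counts follow from how the members were chosen.

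In the order of their differences, the members formed steps that could not all be separated. The ranges of 267567_at (1.91 to 2.37) and 263948_at (1.96 to 2.21) overlapped almost wholly, and that of UGT76B1 (1.38 to 1.96) reached the lower end of both. CCOAMT (1.24 to 1.36) lay just under UGT76B1 without overlap. BGLU27 (0.82 to 1.54) overlapped both CCOAMT and UGT76B1, so its place as the lowest does not hold against the spread between its arrays.

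Within the groups the members did not deviate as a block. Mock replicate 1 was above mock replicate 2 for 3 members (UGT76B1, 267567_at and BGLU27) and below it for 263948_at and CCOAMT. DEX replicate 2 was the higher DEX array for 4 members and the lower one for BGLU27. Over all tested probe sets, the 2 mock arrays differed by an SD of 0.37 and the 2 DEX arrays by 0.21.

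The difference between the mock arrays followed gene length across the array. It had a median of -0.25 (mock replicate 1 minus mock replicate 2) in the shortest 2256 genes and of 0.27 in the longest 2257. DEX minus mock also followed length, with medians of 0.10 in the shortest and -0.083 in the longest of these genes. For BGLU27 the mock pair differed by 0.25, and 2300 genes of like length (within 0.25 on the log2 length scale) had a median of 0.20. CCOAMT, at -0.099, was close to the median of -0.12 for its length. UGT76B1, at 0.50, was not, since 2641 genes of like length had a median of -0.074. With the length trend taken out of each array, an alternative chosen after the data were seen, DEX minus mock was 1.63 for UGT76B1, 1.25 for BGLU27 and 1.24 for CCOAMT. The unlisted pair has no gene length here and could not be treated this way.

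**Figure D2:**
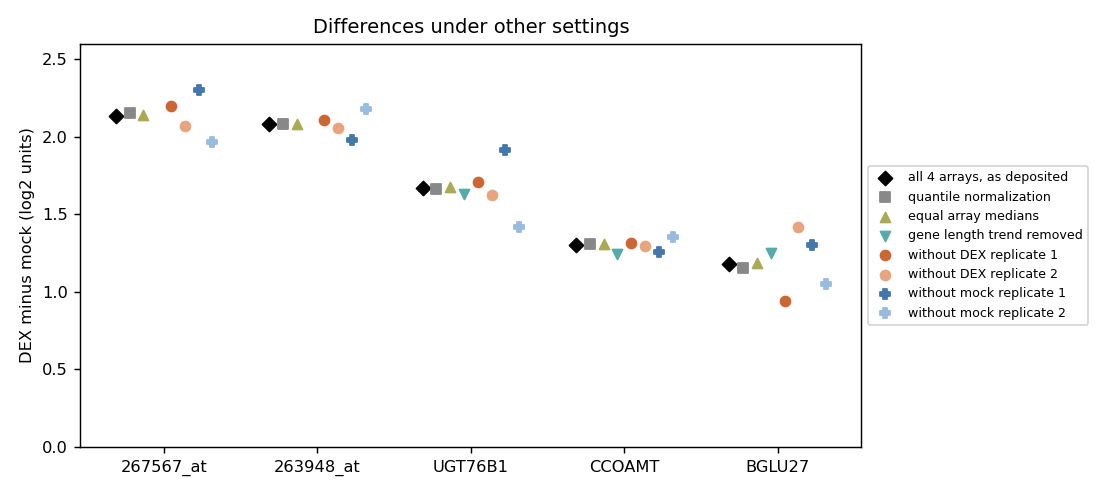
DEX minus mock in log2 units (vertical axis) for each member with all 4 arrays as deposited, under other scalings, with the gene length trend removed (3 members) and without each array in turn. The values of UGT76B1 run from 1.42 without mock replicate 2 to 1.92 without mock replicate 1, those of BGLU27 from 0.94 without DEX replicate 1 to 1.42 without DEX replicate 2, and those of CCOAMT from 1.24 to 1.35.

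The other genes of these pathways and families entered as whole lists, not by their own values, and were tested with limma in the fit over all 19883 probe sets. The lists themselves were chosen with earlier results of these data known, so shares over them are a description only. Of 446 distinct genes in 11 lists, 111 had a probe set with a single annotated gene and 95 of these were tested. At an adjusted p under 0.05, 0 rose and 0 fell, where 0.448% of all tested probe sets passed in either direction. At an unadjusted p under 0.05 there were 19 of the 95 (20.0%, against 8.78% of all tested). The groups did not overlap, with DEX higher, for 31 of 95 (18.1% of all tested) and, with DEX lower, for 24 of 95 (19.8% of all tested). UGT76E12 and BSMT1 count among the 19 and the 31, but passed the filter on low values only through the DEX arrays. UGT76E1 counts among both too, and its mock arrays alone (4.04 and 3.75) would not have passed that filter. The median difference was 0.044, against -0.012 over all tested. In each fit without 1 array, 1 group is a single array, assumed to vary like the other pair. Such fits called more than the fit of all 4 arrays, in the lists and over all tested probe sets alike. Passes in them, or with the replicate number as a block, are not read as support, here and below.

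The relatives of UGT76B1 had small differences. All 7 other listed UGT76 genes were tested, with a median of 0.19. With limma, 0 rose and 0 fell (2 at an unadjusted p under 0.05, against 8.78% of all tested). UGT76E12 stood at 4.79 and 4.36 after DEX and at 3.99 and 3.94 after mock, a difference of 0.61 ± 0.15 (SE; adjusted p = 0.202). UGT76E1 was at 0.39 ± 0.14 (adjusted p = 0.466), and with mock values of 4.04 and 3.75 it needed a DEX array to enter the test. UGT76C2, a cytokinin N-glucosyltransferase, was at 0.26 ± 0.15 (adjusted p = 0.698). The other 4 lay between -0.12 and 0.19. Both mock values of UGT76E12 were under 4, so it entered the test only through the DEX arrays, where it is higher. Its difference was 0.40 without DEX replicate 1 and 0.82 without DEX replicate 2, where it passed (adjusted p = 0.000135). It also passed with the replicate number as a block (adjusted p = 0.00177; 0.842 at most over the alternatives), and neither pass is read as support.

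Of 56 other UGT genes, 39 were tested, with a median of 0.010. With limma, 0 rose and 0 fell (6 at an unadjusted p under 0.05, against 8.78% of all tested). UGT73D1 had the widest difference, 0.72 ± 0.16 (SE; adjusted p = 0.131), from 5.72 and 5.65 after mock to 6.27 and 6.55 after DEX. UF3GT, a glycosyltransferase of anthocyanin synthesis, was at -0.58 ± 0.16 (adjusted p = 0.252). UGT74B1, which glucosylates a late intermediate of glucosinolate synthesis, was at -0.53 ± 0.19 (adjusted p = 0.432). Without mock replicate 2, UGT73D1 (0.69), UF3GT (-0.66) and UGT74B1 (-0.61) passed, with adjusted p-values of 0.0367, 0.0219 and 0.0154. With the replicate block UGT73D1 passed (adjusted p = 0.00243). Over the alternatives, these 3 genes reached at most 0.746, 1 and 1.

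Among the beta-glucosidases, differences went both ways. Of 46 BGLU genes other than BGLU27, 14 were tested, 4 with a positive and 10 with a negative difference. In limma 0 rose and 0 fell (3 at an unadjusted p under 0.05, against 8.78% of all tested), and the median was -0.14. BGLU33 stood at 7.52 and 7.15 after DEX and at 8.38 and 7.93 after mock, a difference of -0.82 ± 0.23 (SE; adjusted p = 0.254). BGLU47 was at 5.74 and 5.83 after DEX and at 6.80 and 6.39 after mock, a difference of -0.82 ± 0.17 (adjusted p = 0.129). BGLU31 was at 0.60 ± 0.16 (adjusted p = 0.234). These 3 are the widest of their list, and their groups did not overlap; over the 14 this held for 1 with DEX higher and 6 with DEX lower, against 18.1% and 19.8% of all tested. BGLU16, the gene next to BGLU27 on the chromosome, was at 8.24 and 8.07 after DEX and at 8.23 and 7.81 after mock, and its groups overlapped. Without mock replicate 2, BGLU33 (-1.04) and BGLU47 (-1.02) passed (adjusted p = 0.0114 and 0.00627), and without mock replicate 1 they were at -0.59 and -0.61. BGLU31 passed without DEX replicate 2 (0.68; adjusted p = 0.0231) and was at 0.40 without mock replicate 2. With the replicate block all 3 passed (adjusted p = 0.0159, 0.000473 and 0.0041; at most 1, 0.777 and 0.846 over the alternatives).

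Of 28 listed genes of phenylpropanoid and lignin synthesis other than CCOAMT, 8 were tested, 5 with a positive and 3 with a negative difference. In limma 0 rose and 0 fell (2 at an unadjusted p under 0.05, against 8.78% of all tested), and the median was 0.090. AT3G13610 (F6'H1), the hydroxylase that leads to the coumarin scopoletin, stood at 7.27 and 7.36 after DEX and at 6.71 and 6.57 after mock, a difference of 0.67 ± 0.16 (SE; adjusted p = 0.196). CCR2, a cinnamoyl-CoA reductase, was at 5.70 and 5.62 after DEX and at 5.23 and 5.23 after mock, a difference of 0.43 ± 0.13 (adjusted p = 0.308). HCT, the hydroxycinnamoyl transferase upstream of caffeoyl-CoA, was at 0.15 ± 0.21 (adjusted p = 0.907). The groups did not overlap, with DEX higher, for 2 of the 8, AT3G13610 and CCR2 (18.1% of all tested). AT3G13610 passed without mock replicate 2 (0.60; adjusted p = 0.0297) and with the replicate block (adjusted p = 0.035; 0.815 at most over the alternatives).

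Of 30 listed genes of camalexin and indole metabolism, 3 were tested. With limma, 0 rose and 0 fell (1 at an unadjusted p under 0.05, against 8.78% of all tested). AT1G26380 stood at 6.70 and 6.82 after DEX and at 5.73 and 5.02 after mock. Its difference of 1.39 ± 0.23 (SE) was the only one of at least 1 log2 unit among the 95 listed genes, and it narrowly missed the threshold (adjusted p = 0.0517). Alternatives with all 4 arrays, this threshold and no block were split. It passed with a floor of 5, equal array medians, robust eBayes or the length trend removed (adjusted p = 0.0459, 0.0371, 0.0272 and 0.0351). It missed with no filter, quantile normalization, no intensity trend or an unmoderated variance (adjusted p = 0.0721, 0.0694, 0.118 and 0.78). Without 1 array its difference was 1.03 to 1.74. With the replicate block, which called 438 probe sets higher and 237 lower over all, its adjusted p (limma) was 1.48e-12. That block was not used, and the value is not read as support. AT2G04400 was at 0.37 ± 0.22 and CYP71B6, a P450 that acts on indole-3-acetonitrile, at 0.14 ± 0.20.

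Of the P450 family CYP71, 15 of 51 listed genes were tested, all of the CYP71B subfamily. In limma 0 rose and 0 fell (0 at an unadjusted p under 0.05), and differences ran from -0.40 (CYP71B34) to 0.24 with a median of 0.023. CYP71B35 was at -0.40 ± 0.20 (SE) and CYP71B5 at -0.34 ± 0.16, with adjusted p-values of 0.634 and 0.622. CYP71B35 passed without mock replicate 2 (-0.62; adjusted p = 0.0373; 1 at most over the alternatives) and was at -0.17 without mock replicate 1. Of 188 other listed P450 genes 3 were tested. CYP78A9 was at -0.49 ± 0.16 (adjusted p = 0.394), CYP84A4 at 0.33 ± 0.15 (adjusted p = 0.601) and CYP51G2 at -0.003. CYP78A9 passed without mock replicate 2 (-0.60; adjusted p = 0.0324). The lists of 8 NHL genes and 7 O-methyltransferases had 0 probe sets with a single annotated gene and were not analysed here.

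Genes known as early markers of pattern-triggered immunity, the response to microbial molecules, had positive differences of up to 0.61. Of 21 listed, 5 were tested. In limma 0 rose and 0 fell (3 at an unadjusted p under 0.05, against 8.78% of all tested), and the median was 0.30. PUB24 stood at 7.56 and 7.45 after DEX and at 6.97 and 6.81 after mock, a difference of 0.61 ± 0.17 (SE; adjusted p = 0.255). PUB23 was at 0.48 ± 0.17 and PUB22 at 0.30 ± 0.13. These 3, the widest of the list, encode ubiquitin ligases that dampen this response. Over the 5 tested the groups did not overlap, with DEX higher, for 4 (18.1% of all tested), and those of BIK1 overlapped. PUB24 passed without mock replicate 2 (0.53; adjusted p = 0.0424; 1 at most over the alternatives). Of 24 listed genes of salicylic acid and pipecolate metabolism, 3 were tested. With limma, 0 rose and 0 fell (1 at an unadjusted p under 0.05, against 8.78% of all tested). That 1 was BSMT1, a methyltransferase of benzoic and salicylic acid, at 0.28 ± 0.11 (adjusted p = 0.511). Both its mock values (3.96 and 3.90) were under 4, so it entered the test only through the DEX arrays, where it is higher. AT5G52810 was at 0.23 ± 0.14 and UGT74F1, which like UGT76B1 glucosylates salicylic acid, at -0.077 ± 0.11.

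**Figure D3:**
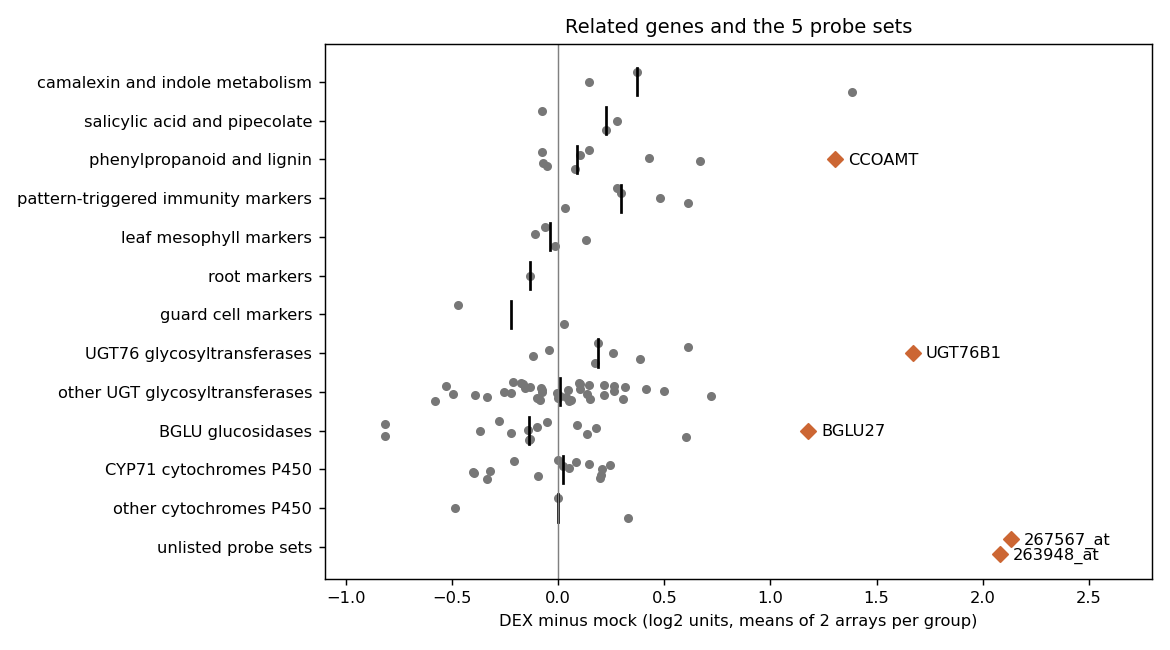
DEX minus mock in log2 units (horizontal axis) for each tested gene of 12 lists (grey points; black bar, list median) and for the members (orange diamonds), which were chosen by this difference. Among the listed genes only AT1G26380, at 1.39 in the camalexin and indole list, reaches 1, and the list medians lie between -0.22 and 0.37.

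The labelled tissue was checked with leaf markers. Of 14 listed genes of the mesophyll, 4 were tested (LHCB4.1, RCA, PSAN and PSBW), and their values ran from 11.90 to 13.42 over all arrays. Their differences were -0.060, -0.11, 0.13 and -0.015, and 0 passed (limma; 0 at an unadjusted p under 0.05). The root marker EXPA7 stood at 5.72 and 5.95 after DEX and at 5.98 and 5.96 after mock, above the filter level of 4. Its difference was -0.13 ± 0.15 (SE). Of the guard cell regulators FMA (FAMA) was at -0.47 ± 0.19 (adjusted p = 0.511) and SPCH at 0.027 ± 0.14. FMA passed without mock replicate 2 (-0.67; adjusted p = 0.0414; 1 at most over the alternatives), and was at -0.28 without mock replicate 1 and -0.33 without DEX replicate 1. Flower and vascular markers had 0 single-gene probe sets and were not analysed here. How far shifts between cell types bear on the members was not tested.

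The genes beside the annotated members on the chromosome had small differences. Of the 3 protein-coding genes on each side of UGT76B1, BGLU27 and CCOAMT, 18 in all, 6 were tested. Their differences ran from -0.20 for HPR, a photorespiratory hydroxypyruvate reductase near CCOAMT, to 0.15 for AT3G11370 near UGT76B1. In limma 0 passed (smallest adjusted p = 0.796; 0 at an unadjusted p under 0.05). The gene directly after UGT76B1, AT3G11350, was at 5.11 and 5.26 after DEX and at 5.07 and 5.10 after mock. This check was chosen after the data were seen.

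The profiles of the members over the 4 arrays were compared after taking each probe set's own mean away, with the root mean square difference over the arrays as the measure. The most alike pair was 267567_at and 263948_at, 0.19 log2 units apart, followed by BGLU27 with CCOAMT (0.22) and 267567_at with UGT76B1 (0.24). The least alike were 267567_at and BGLU27 (0.52). The size of the DEX difference enters these distances, and with 4 arrays they are a description only.

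For each member the 3 single-gene probe sets of closest profile were named. Closest to CCOAMT were AT3G13950 (0.039 log2 units), AT4G16260 (0.066) and AT5G03350 (0.11). AT3G13950 stood at 7.95 and 7.88 after DEX and at 6.51 and 6.63 after mock, with mock pairs alike in spread (0.12 apart, against 0.099 for CCOAMT) and a wider DEX pair (0.069 apart, against 0.020) that ran the other way. Closest to UGT76B1 were AT1G26380 (0.16), OSM34, an osmotin-like gene (0.17), and AT5G64120 (PRX71), a peroxidase (0.18). AT1G26380 shared with UGT76B1 the wide mock pair, with replicate 1 the higher. BGLU27 was closest to AT1G72900 (0.12), AT1G10585 (0.13) and AT3G57700 (0.16), each of which had DEX replicate 1 above DEX replicate 2. Both mock values of AT1G10585 (3.79 and 3.88) were under the filter level of 4. It entered this search only through the DEX arrays, where it is higher. AT1G72900 stood at 7.96 and 7.66 after DEX and at 6.98 and 6.49 after mock. The unlisted pair shared its neighbours: AT4G01870 (0.15 from each), AT1G56060 (0.31 from 267567_at and 0.12 from 263948_at) and OSM34 (0.27 and 0.24). Of these, AT4G01870 stood at 8.17 and 8.07 after DEX and at 6.25 and 6.12 after mock.

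**Figure D4:**
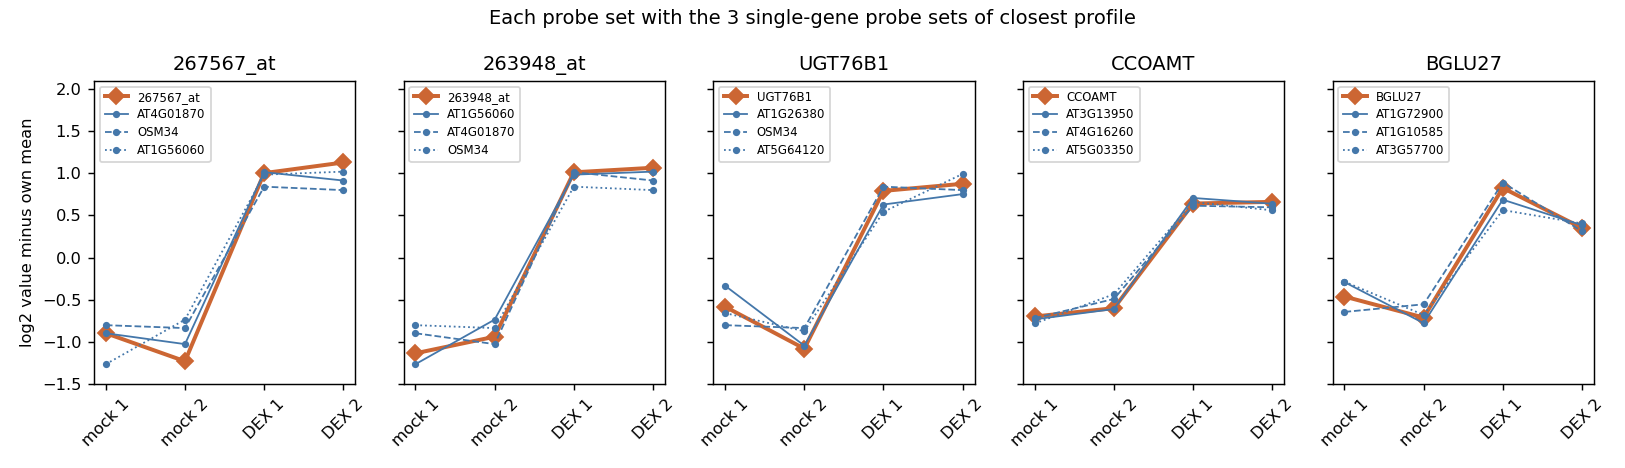
Log2 value minus the probe set's own mean (vertical axis) on the 4 arrays (horizontal axis), for each member (orange diamonds) and its 3 closest single-gene probe sets (blue). AT3G13950 lies within 0.039 log2 units of CCOAMT (root mean square), and BGLU27 and its neighbours share the higher value on DEX replicate 1.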

How the data were processed

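The deposited values are log2 expression values, 1 per probe set and array; per the submitters' processing notes they were made with GCRMA, which corrects background by probe sequence, normalizes quantiles and summarises the probes of a set. Version, settings and log base are not stated, and log2 was taken from the method and the values (array medians 6.51 to 6.55). Of 22810 probe sets, 64 controls were left out, and 19883 with at least 2 arrays at 4 or above entered a limma fit (version 3.58.1, R 4.3.3; lmFit, eBayes with intensity trend, two-sided, no covariate, Benjamini-Hochberg over all 19883). The 4 arrays leave 2 residual degrees of freedom, and their number limits the precision. P-values and SEs rest on the spread between these samples, with each probe set's own spread drawn toward that of probe sets of like intensity. The test was checked on simulated data drawn from the fitted variances, with equal spread in both groups and no gene length trend. That check does not cover the wider mock pair or the length trend seen here.

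Genes came from the platform annotation: 13513 probe sets have 1 gene, 503 several and 8730 are unlisted here; 13436 matched RefSeq (TAIR10.1) by gene ID. A gene counted once, by its probe set of highest mean. Named were all members, up to 3 genes per list with the widest difference (and any that passed), and the 3 closest profiles per member. Members and lists were chosen with earlier results of these data known. Alternatives covered filter, normalization, variance model, threshold, replicate block, cross-hybridising probe sets and each array left out. Sequences of the probes, promoters and proteins were not used here.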

Additional observations from a re-analysis of the deposited data

How the results depend on the processing

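Of the members, only CCOAMT moved by more than its own small SD (0.051) in a setting with all arrays. It was at 1.24 instead of 1.304 with the gene length trend removed, a setting added after the data were seen. That setting was not run for 267567_at and 263948_at, and the replicate block could not change a member's difference. Leaving out 1 array gave 1.97 to 2.30 for 267567_at, 1.98 to 2.18 for 263948_at, 1.42 to 1.92 for UGT76B1, 0.94 to 1.42 for BGLU27 and 1.25 to 1.35 for CCOAMT. Since DEX and mock values are apart for each member, these fits could not turn a sign.

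Over all probe sets 49 were called higher and 40 lower. Without an intensity trend the calls numbered 27 and 24; there were 80 higher with robust eBayes, 107 and 81 at an adjusted p under 0.1, 0 and 0 with an unmoderated variance (1 spread per probe set from 2 residual degrees of freedom), and 112 to 1803 higher and 50 to 1388 lower without 1 array, the highest without mock replicate 2. With the replicate number as a block they were 438 and 237. Same-numbered arrays deviated together only weakly (correlation 0.108 over 19883 probe sets), and the labels do not say that a number marks shared plants, so the block was not used.

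Of the listed genes 0 were called. With a floor of 5, equal array medians, robust eBayes, an adjusted p under 0.1 or the length trend removed, 1 was called higher and 0 lower. With the replicate block 5 were higher and 2 lower. Without 1 array 1 to 5 were higher and 0 to 10 lower. Among 33 named genes that are not members, signs turned only for values near 0. Leaving out 1 array gave -0.012 to 0.30 for HCT, -0.040 to 0.094 for SPCH and -0.049 to 0.043 for CYP51G2, which also turned to 0.0017 with equal array medians and 0.039 with the length trend removed. The cause was not tested. The mock values of BGLU27 (4.02 and 3.77) lie at the filter level of 4.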
